A study of Mus musculus with 6 samples.

Results

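Aminoacyl-tRNA synthetases are the enzymes that attach each amino acid to its transfer RNA, and they were followed here in mouse hippocampal neurons given apolipoprotein E (apoE) particles from microglia or from astrocytes. The set was a list of 36 gene symbols, 20 for the cytosolic enzymes and 16, with symbols ending in 2, for the mitochondrial enzymes. A symbol was kept when its log2 value reached 3.32 in at least 3 of the 6 libraries. All 36 did so in all 6 libraries, out of 47593 symbols in the deposited tables and 15055 genes tested, and no member lay near that minimum. Both groups were primary neurons of wild-type (WT) mice, and at culture day 10 they received particles at 6 µg/mL for 24 h. The medium was Neurobasal with B27 and GlutaMAX, and total RNA was sequenced. The labels of the groups differ in the origin of the particles, astrocytic (3 libraries) or microglial (3 libraries). Every direction below is that of microglial relative to astrocytic apoE, and neurons without particles were not analysed here. Whether libraries of the same group stem from different cultures is not stated in the labels. The p-values thus reflect how far these libraries differ from each other, and that spread may be technical.

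Each synthetase recognises its amino acid and the matching transfer RNA and joins them with the energy of ATP, which sets the accuracy of the genetic code. Animal cells carry separate genes for most cytosolic and mitochondrial enzymes, and the mitochondrial ones charge the transfer RNAs encoded by mitochondrial DNA. Several cytosolic enzymes sit together in a multisynthetase complex. Many cytosolic synthetase genes, but not all, are induced by the transcription factor ATF4 when amino acids are scarce or the endoplasmic reticulum is stressed. In neurons, inherited changes in several synthetases cause peripheral neuropathies and brain disorders.

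The deposited values are log2 values on a scale common to the libraries, and no read depth can be read from them. They have the properties of a regularized logarithm, which draws weakly expressed genes together, so the fold changes below are on that scale and understate the change of such genes. The 12 neuron markers were all tested, of which 2 rose and 5 fell. Those that rose were Gad1 (log2 fold change 0.25 ± 0.025 SE) and Gad2 (0.17 ± 0.034 SE). Neurod6 fell the most (-0.47 ± 0.031 SE). The synaptic marker Snap25 was not called and averaged 12.09 with astrocytic and 12.07 with microglial apoE. Astrocyte transcripts were present as well. Of 11 tested astrocyte markers 9 fell and 1 rose with microglial apoE. Summed over all 12 listed astrocyte markers, tested or not, 2^value was 80979 to 81638 with astrocytic and 68123 to 68666 with microglial apoE. All 8 markers of dividing cells fell, with sums of 2363 to 2431 and 1500 to 1524. The sums of 12 microglia markers were 580.5 to 600.0 and 613.3 to 614.3, and P2ry12, Tmem119 and Trem2 were below the level needed for testing. The neuron markers summed to 80986 to 82370 and 78035 to 78903. Fewer cells of a type and less RNA per cell cannot be told apart in such bulk libraries.

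The cytosolic and the mitochondrial enzymes differed in their response. Of the 20 cytosolic synthetase genes 16 rose with microglial apoE and 0 fell (limma, Benjamini-Hochberg adjusted p under 0.05), whereas of the 16 mitochondrial synthetase genes 0 rose and 0 fell. Over all genes tested 24.9% were called by the same rule, 13.0% as higher and 11.8% as lower. By their symbols Gars and Kars, whose single genes encode the enzyme of both compartments, were counted as cytosolic, and both rose. The split of all calls depended on the scaling, with 52.4% higher as deposited, 65.6% after equalising the sum of 2^value, 41.6% after equalising it without mitochondrially encoded genes and 34.8% with median centring. The cytosolic count was 16, 17, 15 and 14 in that order. At an unadjusted p under 0.05, 1 cytosolic gene (Dars) was lower and 1 mitochondrial gene (Pars2) was higher. The median log2 fold change was 0.135 over the cytosolic genes, 0.015 over the mitochondrial genes and -0.00057 over all genes tested. In 16 cytosolic genes every microglial apoE library stood above every astrocytic one and in 2 every one stood below. In the mitochondrial genes these counts were 2 and 3. Over all genes tested the groups did not overlap in 20.1% (higher) and 18.8% (lower).

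**Figure D1:**
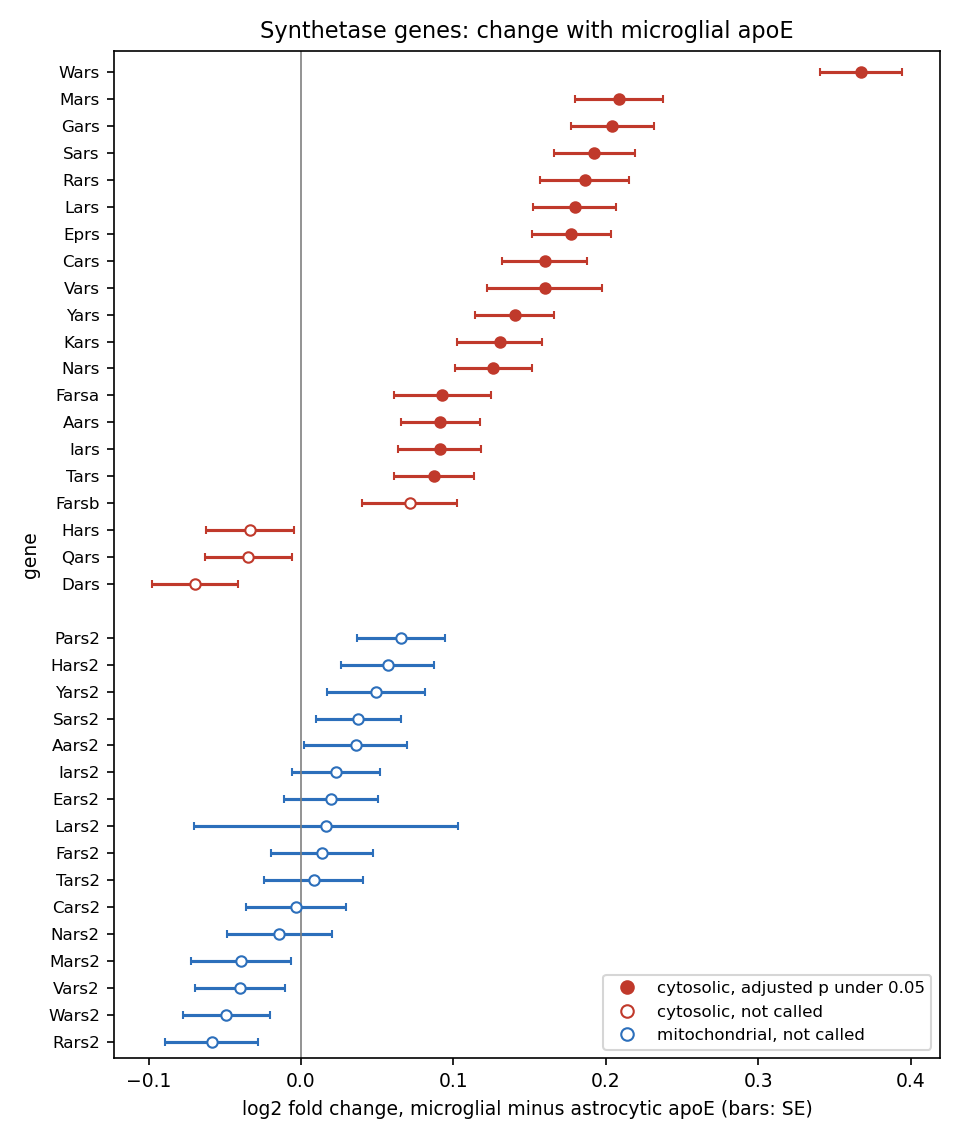
The log2 fold change, microglial minus astrocytic apoE, is plotted for the 20 cytosolic (red) and 16 mitochondrial (blue) synthetase genes, with SE bars and filled points at adjusted p under 0.05 (n = 3 libraries per group). The 16 filled points are all cytosolic and lie to the right of 0, with Wars the farthest at 0.37, and the mitochondrial points lie between -0.059 and 0.066.

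The shift was present in every library. Measured from each gene's mean over the astrocytic apoE libraries, the median over the 20 cytosolic genes was -0.007, -0.013 and 0.021 in the 3 astrocytic libraries and 0.133, 0.153 and 0.123 in the 3 microglial libraries. The same median over the 16 mitochondrial genes was -0.007, 0.001 and 0.015 against 0.006, 0.015 and 0.011. The cytosolic medians of the groups lay far apart, and the mitochondrial medians overlapped. Summed over the cytosolic genes, 2^value was 79367 to 81075 with astrocytic and 88118 to 89183 with microglial apoE, a ratio of group means of 1.11. Over the mitochondrial genes the sums were 5866 to 6008 and 5931 to 6001. The fall of astrocyte and dividing cell markers and the changes of neuron markers occurred in the same libraries. Their part in the rise of the cytosolic synthetases was not tested.

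**Figure D2:**
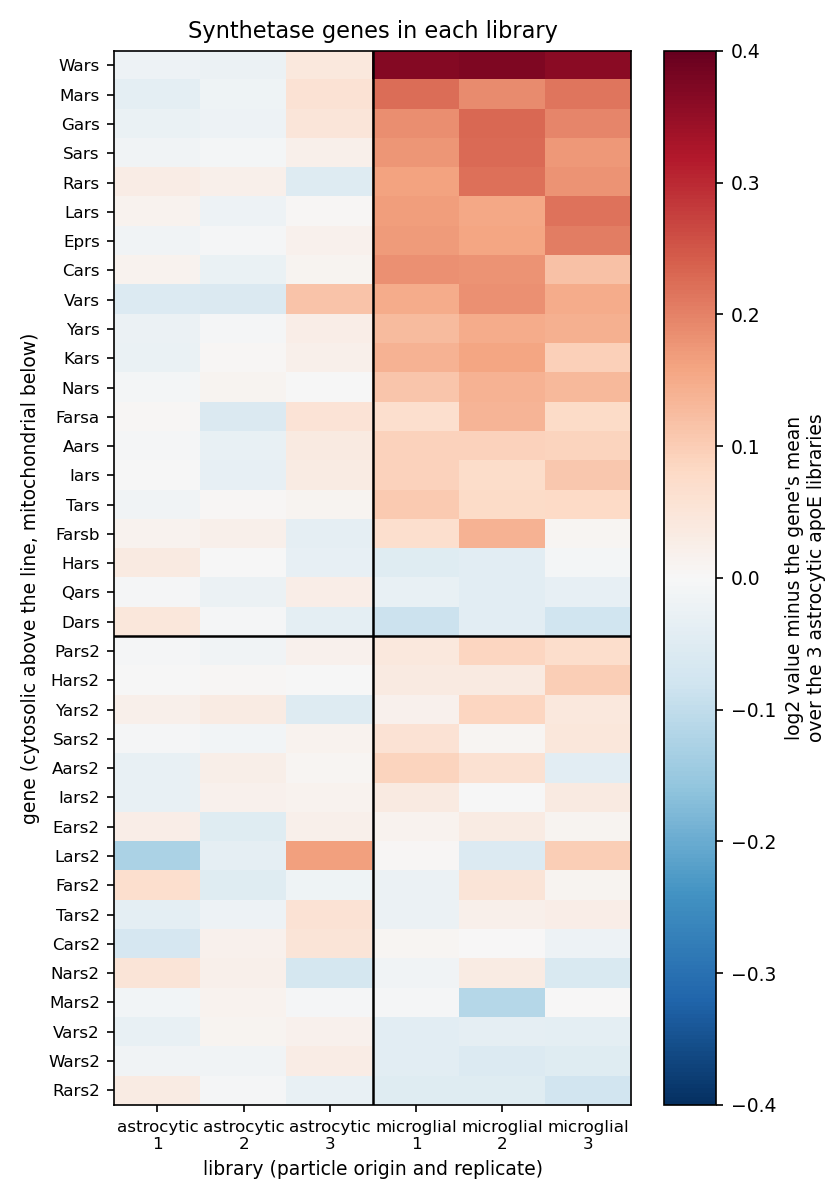
Colour gives the log2 value of each synthetase gene (rows) in each of the 6 libraries (columns), minus the gene's mean over the 3 astrocytic apoE libraries. The upper right block, cytosolic genes with microglial apoE, is red except for Dars, Qars and Hars at its foot, and the lower right block of mitochondrial genes is mixed.

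Wars, which charges tryptophan (chromosome 12, 108860030 to 108894174), had the highest fold change of the set. Its log2 values were 11.94, 11.93 and 11.999 with astrocytic apoE and 12.33, 12.33 and 12.32 with microglial apoE. The 3 microglial libraries were nearly equal and all stood above the astrocytic ones. The difference was 1.29-fold (log2 fold change 0.37 ± 0.027 SE, 95% interval 0.31 to 0.42, adjusted p = 7.8e-11), and Wars ranked 128 of 15055 genes by fold change. Among synthetase genes Wars is known for its induction by interferon-gamma. All 8 genes of a short interferon list rose in the same libraries (median 1.55). Among them were the transcription factor Irf9 (1.51 ± 0.030 SE) and the effectors Ifit1 (2.57 ± 0.029 SE) and Isg15 (2.03 ± 0.034 SE). The smallest rises in the list were those of Irf1 (0.24 ± 0.030 SE) and Gbp2 (0.78 ± 0.031 SE). Any link between this list and the rise of Wars was not tested. Without Wars, 15 of the other 19 cytosolic genes rose and their median was 0.130.

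Gars and Kars each encode the enzyme of both compartments from a single gene, for glycine and lysine. Gars (chromosome 6, 55038007 to 55079500) read 13.09, 13.09 and 13.16 with astrocytic and 13.30, 13.34 and 13.31 with microglial apoE. All microglial libraries were higher, by 1.15-fold (0.20 ± 0.027 SE, adjusted p = 2.6e-06). Kars (chromosome 8, 111993443 to 112011323) read 11.09, 11.12 and 11.14 against 11.25, 11.28 and 11.21. It rose 1.09-fold (0.13 ± 0.028 SE, adjusted p = 0.001), again with no overlap.

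The multisynthetase complex holds 8 of the cytosolic members, and 6 of them rose (median 0.154). Of the 12 outside it 10 rose (median 0.133). Eprs, whose fused protein charges both glutamate and proline (chromosome 1, 185363044 to 185428360), read 12.83, 12.84 and 12.86 with astrocytic and 13.02, 13.01 and 13.05 with microglial apoE, 1.13-fold higher (0.18 ± 0.026 SE, adjusted p = 9.8e-06). Mars, for methionine (chromosome 10, 127296221 to 127311786), read 11.21, 11.23 and 11.30 against 11.47, 11.44 and 11.46 (0.21 ± 0.029 SE, adjusted p = 5.2e-06). In the annotation 2.0% of the exon bases of Mars overlap Ddit3 on the opposite strand, and Ddit3 rose as well (0.19 ± 0.030 SE). Because the strand setting of the counting is unknown, reads from that stretch cannot be assigned.

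Lars, for leucine, read 11.68, 11.65 and 11.67 with astrocytic and 11.84, 11.83 and 11.89 with microglial apoE (0.18 ± 0.027 SE, adjusted p = 1.8e-05). Rars, for arginine (chromosome 11, 35808381 to 35834506), read 11.12, 11.11 and 11.03 against 11.24, 11.30 and 11.26 (0.19 ± 0.029 SE, adjusted p = 2.9e-05). Both genes were higher in every microglial library, and their fold changes differed by less than an SE. The complex member Iars, for isoleucine, rose less (0.091 ± 0.027 SE, adjusted p = 0.016). That call was lost without astrocytic replicate 1 or 2 or microglial replicate 1 or 3, with adjusted p up to 0.12.

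Of the 4 cytosolic genes that did not rise, Dars and Qars belong to the complex and Farsb and Hars do not. Dars, for aspartate (chromosome 1, 128363707 to 128417368), read 11.69, 11.64 and 11.61 with astrocytic and 11.56, 11.60 and 11.57 with microglial apoE. All 3 microglial libraries were below the astrocytic ones, but the difference did not pass (-0.069 ± 0.028 SE, 95% interval -0.13 to -0.011, adjusted p = 0.075). It passed as lower in 4 of 13 alternatives, with median centring, with the sum equalised without mitochondrially encoded genes, without astrocytic replicate 3 and without microglial replicate 2, and its adjusted p ran from 0.014 to 0.34 over all of them. Qars, for glutamine, did not pass (-0.035 ± 0.029 SE, 95% interval -0.093 to 0.024, adjusted p = 0.41). Among the non-enzymatic scaffolds of the complex Aimp2 rose (0.14 ± 0.034 SE, adjusted p = 0.004) but did not pass when astrocytic replicate 2 was left out (adjusted p = 0.054), and Aimp1 (0.029 ± 0.029 SE) and Eef1e1 (0.025 ± 0.032 SE) did not pass.

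Outside the complex Sars, for serine (chromosome 3, 108424865 to 108445209), read 12.59, 12.60 and 12.62 with astrocytic and 12.78, 12.83 and 12.78 with microglial apoE, 1.14-fold higher (0.19 ± 0.026 SE, adjusted p = 4.3e-06). Cars, for cysteine (chromosome 7, 143557230 to 143600090), read 11.52, 11.48 and 11.52 against 11.69, 11.69 and 11.63 (0.16 ± 0.028 SE, adjusted p = 1.1e-04). Neither gene had an overlap between the groups. Vars for valine (0.16 ± 0.038 SE), Yars for tyrosine (0.14 ± 0.026 SE) and Nars for asparagine (0.13 ± 0.025 SE) also rose. In Vars the astrocytic libraries spread widely, at 10.51, 10.51 and 10.68, and the call was lost without microglial replicate 2 (adjusted p = 0.053).

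Smaller rises were found for Aars, for alanine (0.091 ± 0.026 SE, adjusted p = 0.011), and Tars, for threonine (0.087 ± 0.026 SE, adjusted p = 0.017). Aars lost its call without astrocytic replicate 2 (adjusted p = 0.10). Tars lost its call in 5 of the 13 alternatives, with median centring, without astrocytic replicate 1 or 2 and without microglial replicate 1 or 3 (adjusted p up to 0.087). In Aars 15.1% of the exon bases overlap other annotated genes. The phenylalanine enzyme has subunits from separate genes. Farsa rose (0.093 ± 0.032 SE, adjusted p = 0.034), a call that held in 5 of the 13 alternatives, with adjusted p of 0.005 to 0.24 over all of them. Farsb did not pass (0.071 ± 0.031 SE, 95% interval 0.007 to 0.14, adjusted p = 0.097), although it did with the sum of 2^value made equal and without microglial replicate 3. Hars, for histidine, did not pass either (-0.033 ± 0.029 SE, 95% interval -0.093 to 0.026, adjusted p = 0.43).

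Synthetases fall into 2 structural classes with unrelated catalytic folds. Counting Eprs in both, 9 of 10 cytosolic class I genes rose (median 0.169) and 8 of 11 class II genes (median 0.093). The class I exception was Qars and the class II exceptions were Dars, Farsb and Hars. Over the 20 cytosolic genes the fold change had a Pearson r of 0.43 with the mean level and of 0.04 with exon length, given as a description across genes that share the same libraries.

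Among the mitochondrial enzymes the smallest p-value belonged to Pars2, for proline (chromosome 4, 106651069 to 106655282). It read 7.67, 7.66 and 7.69 with astrocytic and 7.72, 7.76 and 7.75 with microglial apoE. The groups did not overlap, but the difference did not pass (0.066 ± 0.029 SE, 95% interval 0.006 to 0.13, adjusted p = 0.10). Rars2, for arginine (chromosome 4, 34614957 to 34660167), read 8.74, 8.70 and 8.68 against 8.66, 8.66 and 8.63. It was lower in all microglial libraries and did not pass (-0.059 ± 0.031 SE, adjusted p = 0.17).

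Hars2, for histidine, read 8.47 in all 3 astrocytic libraries and 8.50, 8.51 and 8.57 in the microglial ones (0.057 ± 0.030 SE, adjusted p = 0.18). Wars2, for tryptophan (chromosome 3, 99141068 to 99239186), read 7.44, 7.44 and 7.48 against 7.41, 7.40 and 7.40 (-0.049 ± 0.028 SE, adjusted p = 0.22). In both genes the groups did not overlap, but the gap between them was smaller than the range within 1 group. Yars2, for tyrosine, read 8.88, 8.89 and 8.81 against 8.87, 8.95 and 8.90, and Sars2, for serine, 7.23, 7.22 and 7.24 against 7.29, 7.24 and 7.28. Their fold changes were 0.049 ± 0.032 SE and 0.038 ± 0.028 SE, and neither passed.

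The other 10 mitochondrial genes (Aars2, Cars2, Ears2, Fars2, Iars2, Lars2, Mars2, Nars2, Tars2 and Vars2) had fold changes of -0.040 to 0.036. Lars2, for leucine, had the widest spread of the set, at 8.96, 9.06 and 9.26 with astrocytic and 9.10, 9.04 and 9.19 with microglial apoE. Its SE of 0.086 leaves a 95% interval of -0.20 to 0.24, so a change of the size seen in Lars lay within that interval. In Iars2 24.2% of the exon bases overlap other genes. No mitochondrial member passed in any of the 13 alternatives, and the lowest adjusted p among them was 0.053, for Pars2.

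**Figure D3:**
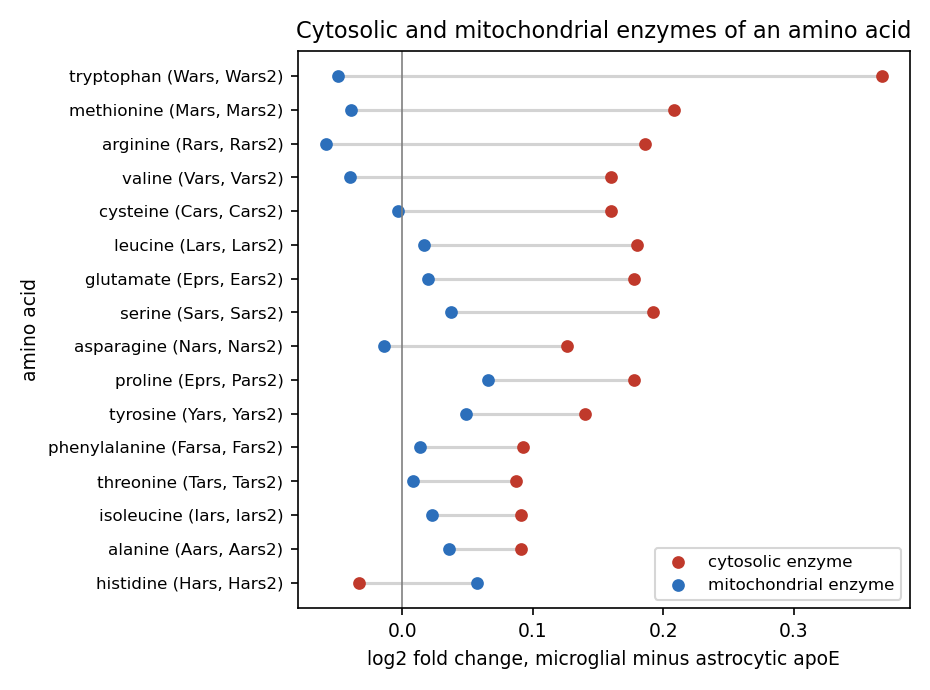
Each line joins the log2 fold changes (microglial minus astrocytic apoE) of the cytosolic (red) and mitochondrial (blue) enzyme for 1 amino acid, with Eprs shown for both glutamate and proline. The red point lies to the right in 15 of 16 pairs, and histidine is the exception.

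The compartments were also compared amino acid by amino acid. Each of the 16 mitochondrial genes has a cytosolic counterpart, 15 genes in all since Eprs serves 2 of them, and Farsa was taken for phenylalanine. The cytosolic fold change was the greater in 15 of 16 pairs, with a median difference of 0.148. The widest gap was for tryptophan, with Wars at 0.37 and Wars2 at -0.049, and methionine followed, with Mars at 0.21 and Mars2 at -0.039. For histidine the order was the opposite, with Hars at -0.033 and Hars2 at 0.057, neither of which passed. These genes overlap each other on opposite strands, over 8.0% of the exon bases of Hars and 4.6% of those of Hars2, and reads from that stretch cannot be assigned. The pairs share libraries and were not tested as replicates.

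Level and compartment went together. The mean log2 values of the cytosolic genes ran from 9.92 (Qars) to 13.22 (Gars) and those of the mitochondrial genes from 7.25 (Sars2) to 9.85 (Iars2), without overlap. Of all 5640 tested genes within the mitochondrial range 25.7% were called, 13.8% as higher. Of 4529 within the cytosolic range 32.2% were called, 18.9% as higher. These shares count genes with changes of any size. The median SE was 0.031 and 0.029 in those ranges. In the mitochondrial range lay 4 genes of the ATF4 list described below, which was drawn up with earlier results of these data known. Trib3 (0.37 ± 0.034 SE), Nupr1 (0.32 ± 0.030 SE) and Pycr1 (0.12 ± 0.033 SE) rose, and Cebpb (0.24 ± 0.085 SE) did not pass. A regularized logarithm, inferred here and not stated in the labels, shrinks fold changes more at lower values. Its part in the difference between the compartments was not tested. Because their levels do not overlap, level and compartment cannot be told apart among these members.

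**Figure D4:**
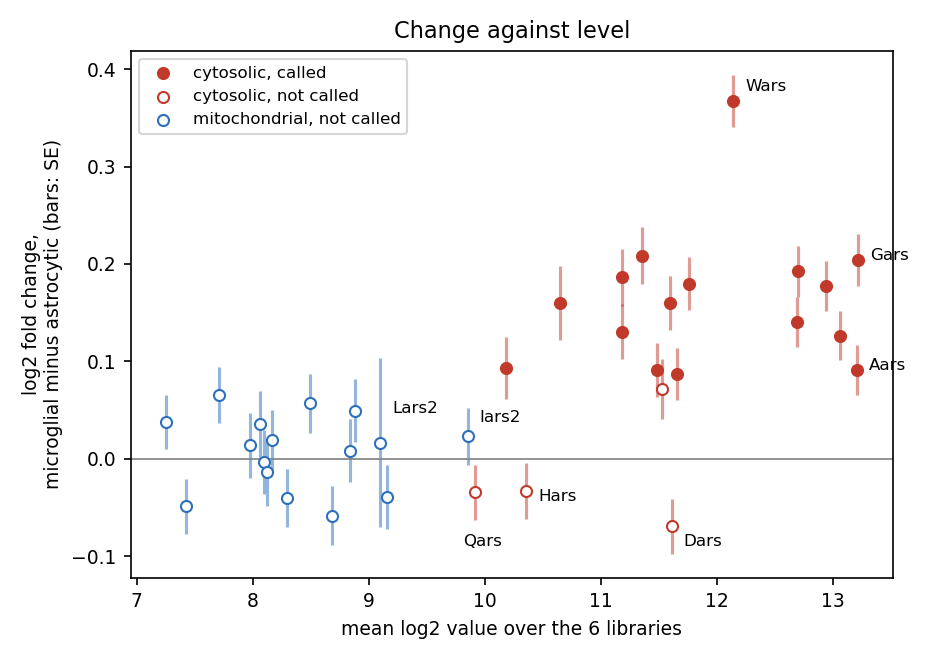
The log2 fold change (microglial minus astrocytic apoE, SE bars) is plotted against the mean log2 value over the 6 libraries for cytosolic (red) and mitochondrial (blue) synthetase genes, filled at adjusted p under 0.05. The compartments occupy separate ranges of level, and the 3 cytosolic genes nearest to the mitochondrial range are Qars and Hars, which were not called, and Farsa, which was.

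Per kilobase of annotated exon, the log2 level was highest for Gars (11.58), Nars (10.94), Wars (10.36) and Sars (10.34). It was lowest among the cytosolic genes for Qars (7.199) and Farsa (7.998). The mitochondrial genes ran from 4.85 (Wars2) to 7.23 (Yars2), with Rars2 at 7.21. The order of Wars and Sars differed between the groups, with Wars at 10.17 and Sars at 10.24 with astrocytic apoE and at 10.54 and 10.43 with microglial apoE. Qars and Rars2 differed in level by no more than the spread between libraries in either group. The cytosolic enzyme had the higher level per kilobase in all 16 pairs, by a median of 3.002 on the log2 scale. Exon length here is the union over all annotated transcripts, which can exceed that of the transcripts in use.

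The genes around the synthetases were read from lists chosen for their roles. The counts of these lists stand beside 13.0% called as higher and 11.8% as lower over all genes tested. Of 23 tested genes of ATF4 and its targets outside the synthetases 22 rose and 0 fell (median 0.208), and the remaining gene, Cebpb, stood at 0.24 ± 0.085 SE (adjusted p = 0.11). At an unadjusted p under 0.05 also 0 were lower. Atf4 itself rose 1.18-fold (0.24 ± 0.026 SE, adjusted p = 9.9e-08). The cystine transporter Slc7a11 (1.03 ± 0.033 SE), the amino acid transporter subunits Slc3a2 (0.40 ± 0.026 SE) and Slc7a5 (0.30 ± 0.026 SE) and the stress gene Sesn2 (0.30 ± 0.026 SE) had the smallest p-values. The list was drawn up with earlier results of these data known, so its direction is no independent evidence.

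Phosphorylation of eIF2alpha favours translation of ATF4. Of 7 genes for its kinases, their partner Gcn1l1 and its phosphatase subunits, 3 rose and 0 fell, and at an unadjusted p under 0.05 also 0 were lower. Eif2ak2, the interferon-induced kinase PKR, rose 1.85-fold (0.89 ± 0.032 SE, adjusted p = 3.6e-17), and the phosphatase subunits Ppp1r15a (0.21 ± 0.027 SE) and Ppp1r15b (0.089 ± 0.030 SE) rose less. The call of Ppp1r15b was lost in 7 of the 13 alternatives, with median centring, with sums equalised without mitochondrially encoded genes and without any 1 library other than astrocytic replicate 1 (adjusted p up to 0.18). Eif2ak4, the kinase GCN2 that senses uncharged transfer RNA, did not pass (-0.038 ± 0.037 SE, adjusted p = 0.49). Gcn1l1 (0.041 ± 0.034 SE) did not pass either.

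Elongation factors take over the charged transfer RNA. Of 15 cytosolic translation factors 5 rose and 0 fell (median 0.071). They were the translation repressor Eif4ebp1 (0.37 ± 0.028 SE, adjusted p = 1.3e-10) and the elongation factor 1 subunits Eef1g (0.20 ± 0.032 SE), Eef1a1 (0.098 ± 0.024 SE), Eef1b2 (0.084 ± 0.027 SE) and Eef1d (0.090 ± 0.030 SE). Eef1b2 lost its call in 6 of the 13 alternatives (adjusted p up to 0.16). They were median centring, the replicate number as a block and leaving out astrocytic replicate 1 or 2 or microglial replicate 2 or 3. Eef1a1 lost its call without astrocytic replicate 1 (adjusted p = 0.059). The alternatives were not examined for Eef1d. Of 9 mitochondrial translation factors 1 rose and 0 fell (median -0.00051), near the 13.0% called as higher over all genes tested. At an unadjusted p under 0.05 Mtif3 was lower (-0.073 ± 0.031 SE, adjusted p = 0.088). The gene that rose was Tsfm, the exchange factor of the mitochondrial elongation factor Tu (0.087 ± 0.030 SE, adjusted p = 0.036). Its call was lost in 10 of the 13 alternatives, among them each that left out 1 library, with adjusted p up to 0.13. Mtif3 passed as lower with median centring (adjusted p = 0.033) and without astrocytic replicate 3 (adjusted p = 0.020). Mitochondria make glutaminyl-tRNA by amidation, through Gatb, Gatc and Qrsl1. Of 7 tested genes for this step, for formylation and for proofreading, 1 rose, the D-aminoacyl-tRNA deacylase Dtd1 (0.10 ± 0.032 SE, adjusted p = 0.022), and 0 fell. That count too was near the share of all genes tested. None of Gatb (-0.048 ± 0.031 SE), Gatc (-0.031 ± 0.029 SE) and Qrsl1 (0.063 ± 0.033 SE) passed, although Qrsl1 did so as higher without astrocytic replicate 3 (adjusted p = 0.022). Dtd1 lost its call with median centring and without astrocytic replicate 1 or 2 or microglial replicate 2 or 3 (adjusted p up to 0.13).

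**Figure D5:**
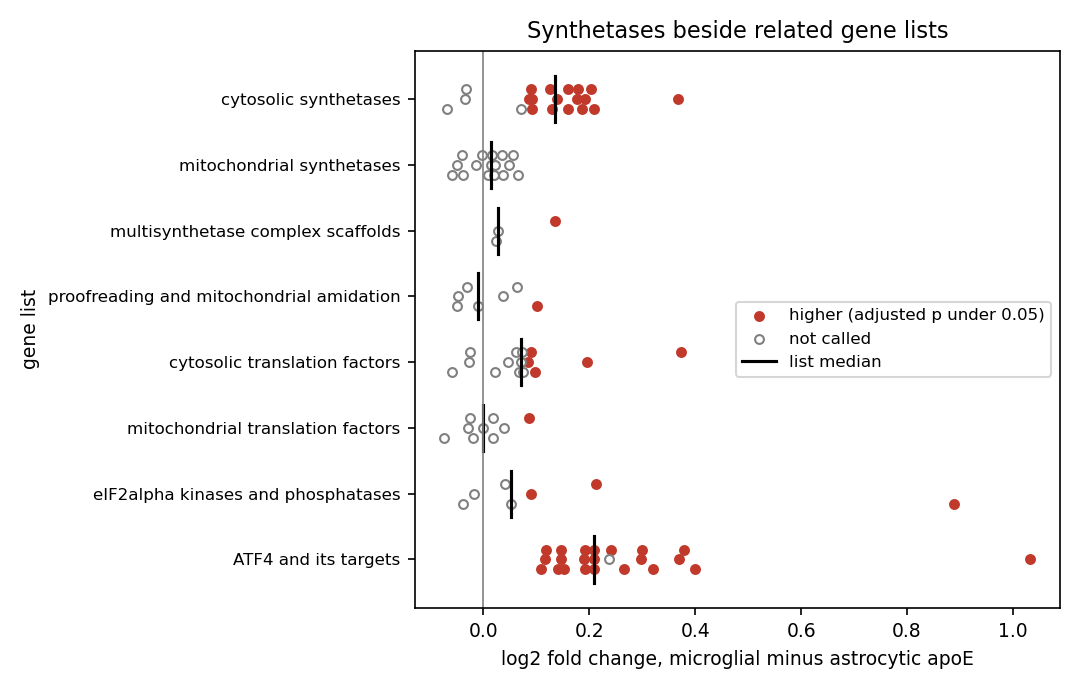
Points are genes of each list, placed by log2 fold change (microglial minus astrocytic apoE), red where they rose at adjusted p under 0.05, with a black bar at the list median. The cytosolic synthetases (median 0.135) lie to the right of the mitochondrial synthetases (0.015) and to the left of ATF4 and its targets (0.208).

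Promoter sequences are shown because ATF4 acts with C/EBP proteins at a composite element, which was searched for as TGATGNAAN on both strands. RefSeq windows (GRCm38.p6) from 250 bases before to 50 bases after the start were available for 13 cytosolic and 14 mitochondrial members. Cars, Hars, Lars, Nars, Rars, Vars, Wars, Hars2 and Pars2 had none in the table. The element was found in windows of 5 of 13 cytosolic genes (38.5%) and of 0 of 14 mitochondrial genes. Of 22 genes of the ATF4 list with a window 7 held it (31.8%). Among all 32851 windows the share was 4.0%. That share counts windows, whereas a gene counted when any of its windows matched, and some genes have several. The shares of genes and of windows are thus not on the same measure. For each of these 5 synthetase genes 1 match is printed 5′ to 3′ on the gene's strand with 10 bases on either side and the match in capitals. The printed match reads TGATG on the strand shown for Yars and on the opposite strand for the others. Positions count from 1 at the start. Aars held another match at positions -113 to -105, also on the opposite strand, which is not printed.
Aars, positions 9 to 17: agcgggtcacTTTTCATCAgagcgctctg
Gars, positions -31 to -23: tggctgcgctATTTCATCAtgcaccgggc
Iars, positions 7 to 15: cactgtcagtATTGCATCAcctccagacg
Tars, positions -16 to -8: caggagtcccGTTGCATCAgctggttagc
Yars, positions 4 to 12: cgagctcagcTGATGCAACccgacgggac

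These windows lie on GRCm38 at chr8:111033840-111033868 (Aars, + strand), chr6:55037960-55037988 (Gars, + strand), chr13:49682126-49682154 (Iars, + strand), chr15:11399656-11399684 (Tars, - strand) and chr4:129189896-129189924 (Yars, + strand). In GENCODE M21 the Gars window is upstream of the gene. Those of Aars, Iars and Tars touch an untranslated region of at least 1 transcript, and that of Yars touches a coding exon of one. All 5 genes with the element rose (median 0.091). Of the 8 cytosolic genes whose window lacked these letters 5 rose (median 0.112). Fold changes ran from 0.087 to 0.20 with the element and from -0.069 to 0.21 without it. Among the 7 cytosolic genes with no window, 6 rose (median 0.160). With the element the share of genes that rose was thus higher, but the median was lower. A link between the element and the fold change was not tested. A match is a description of letters in the window and no measure of binding.

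The interferon-stimulated response element, searched for on both strands, was found for 1 of 13 cytosolic genes with a window (Qars, 7.7%). It was found for 0 of 14 mitochondrial genes. Among all windows the share was 3.4%, again counted over windows and not over genes. No window of Qars held the ATF4 element. The table held no window for Wars.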

How the data were processed

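Libraries were grouped by the labelled treatment, 3 with astrocytic and 3 with microglial apoE particles. The authors deposited 1 log2 value per gene symbol and sample. Build GRCm38 and the tools HISAT2, featureCounts, DESeq2 and FastQC are named, without roles, per the submitters' processing notes. The strand setting, annotation release and versions of these tools were not given in the sources used here. Listed at 0 in all libraries were 21031 symbols, with 0 symbols at 0 in only some, and low values were drawn together, from which a regularized logarithm is inferred. Depth is unknown, and the sum of 2^value (18060473 to 18337624 per library) is no read count. A gene was tested when 2^value reached 10 in at least 3 libraries. limma 3.58.1 (R 4.3.3, trend and robust options) compared the groups on the values as deposited, with Benjamini-Hochberg adjustment over all 15055 genes and a threshold of 0.05. Errors are moderated SEs. The fit was tested on simulated data. The members and lists were chosen with earlier results of these data known.

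Any member could be named. Values per library are given for the 8 cytosolic and 6 mitochondrial members with the smallest p, for Wars, Gars, Kars and Eprs, and, chosen after their values were seen, for Dars, Vars and Lars2. Of other lists up to 4 genes with the smallest p are named, and the remaining ones were named after their values were seen. Positions, exon lengths and overlaps are from GENCODE M21 (GRCm38, 1-based). Alternatives were another limma setting, 2 filters, 3 scalings, a replicate block and leaving out each library. Some items are not reported here.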

Additional observations from a re-analysis of the deposited data

How the results depend on the processing

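All 11 cytosolic genes Cars, Eprs, Gars, Kars, Lars, Mars, Nars, Rars, Sars, Wars and Yars passed as higher in all 13 alternatives, and 18 members, Hars, Qars and the 16 mitochondrial genes, passed in none. With the replicate number as a block, 15 cytosolic genes passed (Farsa was lost) and 3387 genes in all. Same-numbered libraries did not deviate together (correlations 0.039, -0.12 and -0.19), so the numbers were not taken as pairs. The count of cytosolic genes ran from 12 to 17 over all alternatives. One cytosolic gene, Dars, passed as lower (count 1) with median centring and with the sum equalised without mitochondrially encoded genes, and leaving out 1 library gave 0 to 1.

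Median centring gave 2765 lower genes in all and 1478 higher, a share of 34.8% higher against 52.4% as deposited and 65.6% with equal sums. It moved the cytosolic median to 0.117 and the mitochondrial median to -0.0033. The mitochondrial median was 0.029 with equal sums, 0.0048 with sums equalised without mitochondrially encoded genes, and -0.0016 to 0.026 with 1 library left out. The difference of the medians was 0.116 to 0.134 with 1 library left out. Members that did not pass changed sign near 0: Cars2 (0.010) with equal sums, Tars2 (-0.0020) with sums equalised without mitochondrially encoded genes, and Fars2 (-0.0047), Lars2 (-0.0019) and Tars2 (-0.010) with median centring. With 1 library left out they ran from -0.037 to 0.022 (Cars2), -0.0041 to 0.033 (Ears2), -0.011 to 0.047 (Fars2), -0.047 to 0.098 (Lars2), -0.049 to 0.011 (Nars2) and -0.011 to 0.037 (Tars2), and the scaffold Eef1e1 from -0.018 to 0.052. The cause was not tested.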
